A study of Mus musculus with 2 samples.

Results

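Classical cadherins and non-clustered protocadherins are surface proteins that join neighbouring cells, and the accessibility of their genes was read from DNase-seq of mouse hippocampus. Members were the protein-coding genes of the GENCODE M21 annotation whose symbol is Cdh or Pcdh followed by a number alone, without Cdh5, which is a gene of blood vessel lining. The rule gave 33 of 21938 protein-coding genes, 22 cadherins and 11 protocadherins. The rule itself uses gene symbols and no accessibility value. The enzyme DNase I cleaves chromatin most readily at accessible DNA. Stretches with many cuts are listed as peaks, and short protected runs inside them as footprints.

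The tissue was labelled layer of hippocampus and came from female B6CASTF1/J mice (a first-generation strain cross) of 8 to 10 months. The labels form 1 group of 2 libraries, numbered as biological replicates 1 and 2, each made from a pool of 2 biosamples and both carrying the same donor label. The labels do not say that the pools came from separate animals, so the spread between the libraries may be technical. The libraries held 98902 and 130199 peaks in the larger of the deposited lists, with a median peak signal of 0.600 and 0.580, and 244447 and 251726 footprints. A promoter was open in both libraries for 6 of 7 neuronal markers, 4 of 5 markers of the dentate gyrus and CA fields and 3 of 4 astrocyte markers. The same held for 1 of 4 microglial markers, 1 of 4 endothelial and mural markers and 0 of 3 choroid plexus markers. Over all protein-coding genes the share was 59.2%. In the second-lowest quintile of CpG density, defined below, which held all 4 microglial markers, it was 30.4%. The other marker lists were not read against CpG classes. Defining markers with no promoter peak in either library included Fibcd1 of CA1 and Aqp4 of astrocytes. In such bulk tissue, fewer cells of a type and less open chromatin per cell cannot be told apart.

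Classical cadherins bind the same or a related cadherin on the next cell through calcium-dependent repeats, and inside the cell they hold catenins that link them to actin. Type I cadherins such as N-cadherin are spread widely over tissues, while type II cadherins are each made by limited sets of neurons and are known for matching cell groups and synaptic partners. Non-clustered protocadherins, sorted into delta-1 and delta-2 groups, adhere more weakly, and several delta-2 proteins recruit the WAVE actin regulators. In the hippocampus N-cadherin and several type II cadherins act in synapse formation and plasticity.

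Promoters of 25 of the 33 genes were open in both libraries, which is 75.8%, against 59.2% of all protein-coding genes. A promoter here spans 500 bp up and down from each annotated start of the gene's transcripts, and it is called open where a peak of the larger list touches it. The deposited signal is the peak's height as listed, with no stated unit. In the stricter list 22 of the 33 were open in both libraries, against 53.3% of all genes. Of the 25, those not open in both libraries there were Cdh11, Pcdh1 and Pcdh18. The strongest promoters belonged to 4 protocadherins, Pcdh9, Pcdh10, Pcdh17 and Pcdh8. Most open cadherin promoters were below the median of all open genes in signal and above it in width. Outside promoters, 31 of the 33 genes had at least 1 open site found in both libraries, and 186 of their 243 sites lay in introns. The share of sites in introns was not counted over all genes. There was no second group, so all values are descriptions, given with the same quantity over all genes where it was counted.

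The sequences shown first are the stretches that carried the highest promoter signal and the strongest sites inside introns. They are reference sequence of GRCm38 (mm10), read 5′ to 3′ on the strand of the gene, and alleles of the CAST parent are not shown. Capitals mark bases that both libraries list in a footprint. Of the promoters, the parts of the peak outside annotated exons are given. The Pcdh10 stretch is chr3:45378261-45378397 on the plus strand, the Pcdh17 stretch chr14:84443405-84443562 on the plus strand, and the Pcdh8 stretch chr14:79771313-79771440 on the minus strand, and each ends at the base before the gene record.
Pcdh10 promoter: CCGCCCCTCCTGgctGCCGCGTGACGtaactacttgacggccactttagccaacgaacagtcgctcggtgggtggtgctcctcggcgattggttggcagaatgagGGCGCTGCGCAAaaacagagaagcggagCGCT
Pcdh17 promoter: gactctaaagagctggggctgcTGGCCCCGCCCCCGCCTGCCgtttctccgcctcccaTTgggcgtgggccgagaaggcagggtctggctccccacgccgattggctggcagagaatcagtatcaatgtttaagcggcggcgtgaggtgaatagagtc
Pcdh8 promoter: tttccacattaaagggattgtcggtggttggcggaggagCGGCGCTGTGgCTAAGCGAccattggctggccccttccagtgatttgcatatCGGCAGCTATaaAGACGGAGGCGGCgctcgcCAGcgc
The letters CCGCCC, the other strand of the SP/KLF motif GGGCGG, stood at bases 1 to 6 of the Pcdh10 stretch and at bases 28 to 33 of the Pcdh17 stretch, in both cases wholly inside footprints. The Pcdh8 stretch held 44 footprint bases of 128 and no match to that motif. All 3 stretches also held ATTGG, the other strand of CCAAT, at bases 88 to 92 in Pcdh10, 58 to 62 and 101 to 105 in Pcdh17, and 61 to 65 in Pcdh8. That motif was looked for after these sequences had been seen. On either strand, CCAAT was in the 150 bp before the record of all 5 delta-2 protocadherins, the 3 shown and Pcdh18 and Pcdh19, against 27.2% of all protein-coding genes. The 3 sequences that prompted the search are among those 5. Over all 33 genes the share was 45.5%. The ATTGG matches lay outside shared footprints except for 2 bases of the first in Pcdh17. The Pcdh9 peak, the highest of all members, lay just before the GENCODE record but wholly in a first exon that RefSeq predicts for Pcdh9 itself, and is not printed.

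The intronic stretches are the strongest shared site of Cdh10 at chr15:18821441-18821660, of Pcdh9 at chr14:93214881-93215160, of Cdh13 at chr8:119158721-119159020 and of Cdh16 at chr8:104602741-104603040. The Cdh10 and Cdh13 genes lie on the plus strand, and the Pcdh9 and Cdh16 genes on the minus strand. Among the strongest intronic sites of each gene, those shown had the highest mean signals. The Cdh16 gene had no open promoter.
Cdh10 intron: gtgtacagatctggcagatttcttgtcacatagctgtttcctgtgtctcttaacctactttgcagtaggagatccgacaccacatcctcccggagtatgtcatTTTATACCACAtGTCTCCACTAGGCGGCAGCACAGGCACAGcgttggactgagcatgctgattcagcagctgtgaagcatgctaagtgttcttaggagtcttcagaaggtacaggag
Pcdh9 intron: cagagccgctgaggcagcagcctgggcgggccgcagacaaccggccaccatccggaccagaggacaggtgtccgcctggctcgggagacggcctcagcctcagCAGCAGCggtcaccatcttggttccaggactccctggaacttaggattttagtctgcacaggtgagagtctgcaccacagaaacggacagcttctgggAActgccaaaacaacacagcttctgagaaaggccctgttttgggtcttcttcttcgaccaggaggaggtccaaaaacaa
Cdh13 intron: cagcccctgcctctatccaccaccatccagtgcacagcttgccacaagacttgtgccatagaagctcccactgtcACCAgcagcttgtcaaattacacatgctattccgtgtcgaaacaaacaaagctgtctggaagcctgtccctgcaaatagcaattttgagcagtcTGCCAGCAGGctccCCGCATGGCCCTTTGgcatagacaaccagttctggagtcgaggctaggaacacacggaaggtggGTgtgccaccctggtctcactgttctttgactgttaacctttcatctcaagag
Cdh16 intron: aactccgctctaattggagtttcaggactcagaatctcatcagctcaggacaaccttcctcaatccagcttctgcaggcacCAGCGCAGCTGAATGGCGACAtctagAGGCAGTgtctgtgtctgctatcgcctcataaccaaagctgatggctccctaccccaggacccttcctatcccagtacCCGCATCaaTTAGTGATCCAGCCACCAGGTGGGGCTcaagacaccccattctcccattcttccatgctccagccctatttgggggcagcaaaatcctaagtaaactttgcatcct
In the Cdh10 site, CCACTAGGCGGC at bases 120 to 131 matched the consensus used for CTCF with 12 of 12 bases in footprints, and an AP-1 match, tgattca of TGANTCA, at bases 162 to 168 had none. In the Pcdh9 site, CAGGTG, an E-box bound by Snail and Zeb proteins, stood at bases 65 to 70 and 162 to 167 and GGGCGG at bases 24 to 29, all outside shared footprints. In the Cdh16 site, CAGGTG at bases 211 to 216 lay wholly in a footprint. The Cdh13 site held none of the 13 motifs searched and 31 footprint bases of 300. A match is a description of the letters and not a binding site.

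Among type I cadherins the promoters of the neural members Cdh2 and Cdh4 were open, and those of epithelial and muscle cadherins were not open in both libraries. Cdh2, N-cadherin, had a promoter signal of 0.733 in replicate 1 and 1.19 in replicate 2 (0.963 ± 0.325, SD, n = 2). Cdh4, R-cadherin, had 0.648 and 0.668 (0.658 ± 0.014, SD, n = 2). The Cdh2 libraries differed by more than those of Cdh4, and the Cdh2 and Cdh4 values did not overlap although the lower Cdh2 value was close to both Cdh4 values. Cdh1, E-cadherin of epithelia, had no promoter peak in replicate 1 and a peak of 0.254 in replicate 2. Cdh15, M-cadherin of muscle, had none in replicate 1 and 0.382 in replicate 2. Both replicate 2 peaks were absent from the stricter list, and a peak in replicate 2 alone was seen for 3 members against 3.22% of all genes. Cdh3, P-cadherin, had no promoter peak in either library.

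Type II cadherins were open as a class, with a promoter peak in both libraries for 11 of 12. Cdh24 was the highest, with 1.44 in replicate 1 and 2.04 in replicate 2 (1.74 ± 0.424, SD, n = 2). Cdh8 had 1.52 and 1.73 (1.63 ± 0.150), and Cdh10 had 1.47 and 1.49 (1.48 ± 0.015). Cdh8 was above Cdh10 in both libraries without overlap. Cdh24 cannot be ordered against either, since its replicate 1 value was below both values of each. Cdh8 and Cdh10 are cadherins of neuron subsets. The Cdh10 promoter window is shared with the noncoding gene C030047K22Rik and the Cdh8 window with A330008L17Rik, so their peaks belong to both genes of each pair. The Cdh24 window overlaps that of Gm17606, though the highest Cdh24 peak of replicate 2 does not touch it.

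Cdh18 followed with 1.03 and 1.42 (1.23 ± 0.278, SD, n = 2). Cdh22 had 0.860 and 1.22. Cdh11, also known as OB-cadherin and absent from the stricter list in replicate 2, had 0.842 and 0.994. Replicate 2 was the higher library for each of these, and Cdh22 overlapped both of the others. Cdh9, a cadherin of dentate and CA3 synapses, had 0.709 and 0.827. Cdh7 had 0.660 and 0.843, and Cdh6, also known as K-cadherin, had 0.648 and 0.851. Cdh12, N-cadherin 2, had 0.660 and 0.827, and Cdh20 the lowest pair, 0.448 and 0.708. Cdh9, Cdh7, Cdh6 and Cdh12 overlapped each other. Cdh20 overlapped Cdh7, Cdh6 and Cdh12, and both of its values were below those of Cdh9, though its upper value was close to the lower value of Cdh9. The highest peaks of Cdh20, and those of Cdh22, did not overlap between the libraries and lay side by side at the same start. The remaining gene, Cdh19, a cadherin of Schwann cells and their precursors, had no promoter peak in replicate 1 and 0.207 in replicate 2.

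Of the cadherins outside both types, Cdh13 and Cdh23 were open. Cdh13, T-cadherin, which is held to the membrane by a lipid anchor instead of a transmembrane segment, had 1.53 and 1.57 (1.55 ± 0.024, SD, n = 2). Cdh23, a cadherin of hair cell tip links, had 1.37 and 1.65. These come from different peaks at different starts of the gene, so their mean of 1.51 is not that of a single site, and the values of each start are given with the inner starts. Cdh16 of kidney, Cdh17 of intestine and liver, and Cdh26 had no promoter peak in either library. With Cdh3 and the endothelial protocadherin Pcdh12 they made up the 5 members without any promoter peak, against 36.4% of all genes. None of the 5 had a base listed below a false discovery rate of 0.05 in its promoter windows, and the same held for 96.9% of all genes without a promoter peak.

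All 3 delta-1 protocadherins were open, with very different levels. Pcdh9 had 6.53 in replicate 1 and 6.42 in replicate 2 (6.48 ± 0.071, SD, n = 2), at percentile 91.4 of the 12982 genes open in both libraries. Pcdh1 had 1.00 and 0.819 (0.909 ± 0.128), and Pcdh7 had 0.812 and 0.875 (0.843 ± 0.044). Both Pcdh9 values were far above those of the others, while Pcdh1 and Pcdh7 overlapped. Pcdh1 was missing from the stricter list in both libraries. The Pcdh7 windows overlap those of the noncoding gene 4932441J04Rik, though the highest Pcdh7 peak of replicate 2 does not touch them.

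The 5 delta-2 protocadherins were all open and spread from near the top to near the bottom of open promoters. Pcdh10, which recruits the WAVE complex and is known for roles in axon growth and synapse elimination, had 6.51 and 5.94 (6.23 ± 0.406, SD, n = 2; percentile 90.4). Pcdh17, a protocadherin of presynaptic assembly, had 4.94 and 4.72 (4.83 ± 0.156; percentile 82.0). Pcdh8, also called arcadlin and known as an activity-induced gene of hippocampal neurons, had 2.16 and 2.99 (2.57 ± 0.589; percentile 54.9). These 3 did not overlap each other, and each stood above every cadherin in both libraries. Pcdh19, the X-linked gene of a female-limited epilepsy in humans, had 1.00 and 1.07 (1.04 ± 0.052). Pcdh18 had 0.412 and 0.533 (0.472 ± 0.085; percentile 3.91), the lowest of the 25 members by mean. In the stricter list the Pcdh18 promoter was open in replicate 2 alone. Pcdh10 and Pcdh9 overlapped each other, so the order of these top promoters is within the spread between libraries. The Pcdh10 window is shared with the noncoding gene 2610316D01Rik.

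Of the other protocadherins, Pcdh20 had 0.879 and 1.18 (1.03 ± 0.211, SD, n = 2). Pcdh15, the tip-link partner of Cdh23 in hair cells, had 0.527 and 0.684 (0.605 ± 0.111). The values of Pcdh20 were above those of Pcdh15 in both libraries. Pcdh12 had no promoter peak, as stated above.

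**Figure D1:**
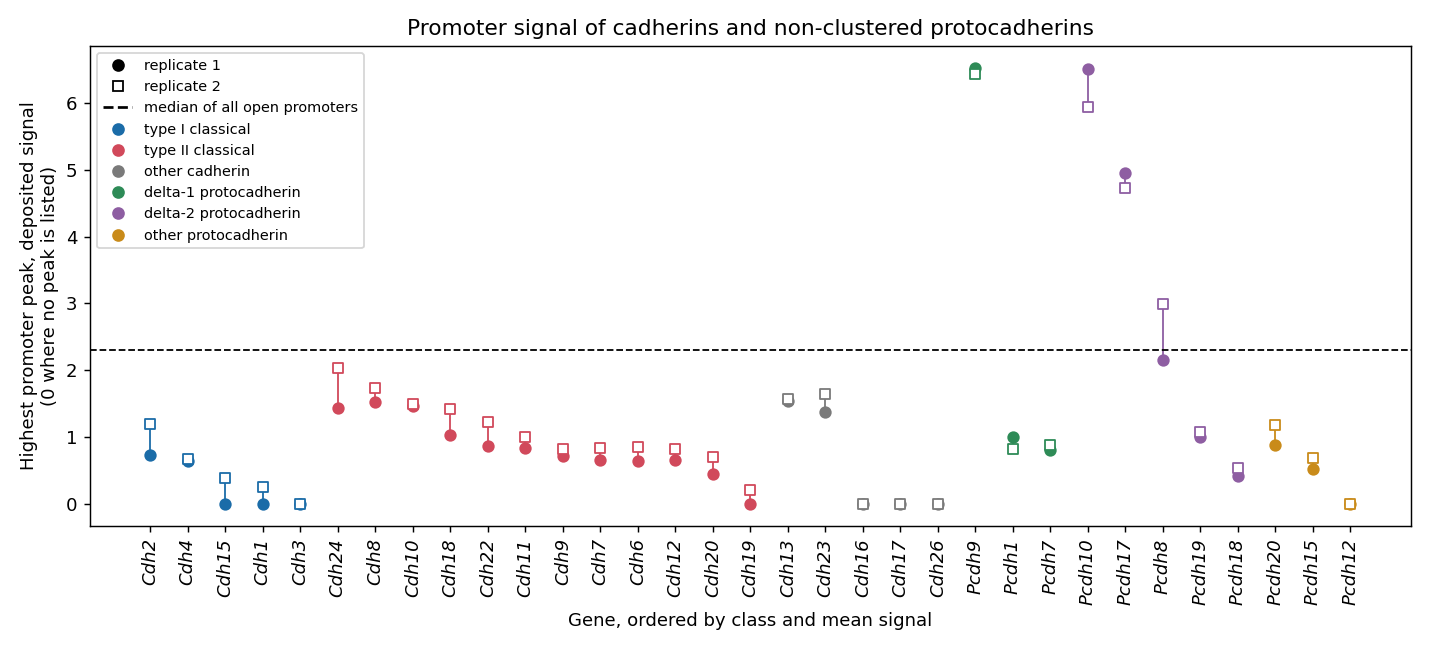
Highest promoter peak of each of the 33 genes in the deposited signal, filled circles for replicate 1 and open squares for replicate 2, joined by a line, coloured by class and ordered by mean, with 0 where no peak is listed. Pcdh9, Pcdh10 and Pcdh17 lie above the dashed median of all open promoters, 2.30, in both libraries, and Pcdh8 lies on both sides of it. With promoter windows of 500 bp on either side of a start, all cadherins lie below it.

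The median promoter signal over the 25 open members was 1.03, against 2.30 over all 12982 open genes. In replicate 1 the medians were 0.879 and 2.12, and in replicate 2 they were 1.18 and 2.48. By mean signal, 4 of the 25 stood above the median of all open genes and 21 below. The log2 ratio of replicate 2 to replicate 1 had a median of 0.27 in the members and 0.14 in all open genes, with a range of -0.29 (Pcdh1) to 0.70 (Cdh2). The members' median is the ratio of Cdh23. For Cdh20, Cdh22 and Cdh23 the ratio compares peaks that did not overlap between the libraries. By highest promoter peak, the 4 genes in which replicate 1 was the higher library were Pcdh1, Pcdh10, Pcdh17 and Pcdh9, all protocadherins. At the Cdh23 start 290037 bp inside the gene, replicate 1 was also the higher (1.37 against 0.978). In the other open protocadherins, Pcdh7, Pcdh8, Pcdh15, Pcdh18, Pcdh19 and Pcdh20, replicate 2 was the higher. The share of all open genes with the higher value in replicate 1 was not counted.

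CpG content is a known correlate of promoter openness, so counts and levels were also read within quintiles of CpG density (CpG observed over expected, within 500 bp of the 5′ end of the gene record). From the lowest to the highest quintile, members were open in both libraries in 1 of 4, 2 of 5, 8 of 9, 10 of 11 and 4 of 4 cases. All genes gave 10.3%, 30.4%, 71.9%, 89.6% and 93.7%. A gene could be open at any start, while CpG was read at the record's 5′ end. Cdh18 and Cdh23, open members of the lower quintiles, had no peak within 500 bp of that end and opened at inner starts. The members' count therefore stood near that of genes of the same CpG class in the upper quintiles, where most of them lie. Their signal did not: the median was 0.973 against 1.84 over all open genes of the third quintile, 1.59 against 2.73 in the fourth and 0.751 against 2.95 in the fifth. The fifth quintile held Cdh2, Cdh4, Pcdh7 and Pcdh15.

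The same 4 genes were open over long stretches. Within 2 kb of the 5′ end of its record, Pcdh7 had 2794 bp of peaks in replicate 1 and 2487 bp in replicate 2, made up of many peaks of which 10 and 6 touched its promoter windows. Cdh2 had 1994 and 1204 bp. Cdh4 had 1657 and 1357 bp, and Pcdh15 had 1158 and 946 bp. Their 2-library means were 2640.5, 1599, 1507 and 1052 bp, against a median of 503.75 bp over all open genes of the fifth CpG quintile. All 4 were thus wider than that median, while their mean signals of 0.605 to 0.963 were below the quintile's median of 2.95. Among the 4, the wider Pcdh7 and Cdh2 also had higher mean signals than Cdh4 and Pcdh15.

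Over the 25 open members the median open width was 632.5 bp, against 396.5 bp over all open genes, and 21 of the 25 were wider than that median. In replicate 1 the medians were 660 and 377 bp, and in replicate 2 they were 628 and 388 bp. Among the 21 members whose signal was below the median of open genes, the median width was 565.5 bp against 382.5 bp, and 18 of the 21 were wider. Pcdh17, at 1763 bp, and Pcdh10, at 1602.5 bp, combined a wide stretch with a high signal. Pcdh9 combined the highest signal of the members with a width of 359 bp, below the median. Cdh8 reached 1250.5 bp and Cdh20 1310.5 bp. Cdh10, Cdh13, Cdh9 and Cdh22 were closer to the median, at percentiles 52.8 to 60.0 of all open genes. Narrower than the median were Pcdh9, Pcdh19 at 353 bp, Cdh23 at 145 bp and Cdh18 at 0 bp, and the last pair opened at other starts, described next.

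**Figure D2:**
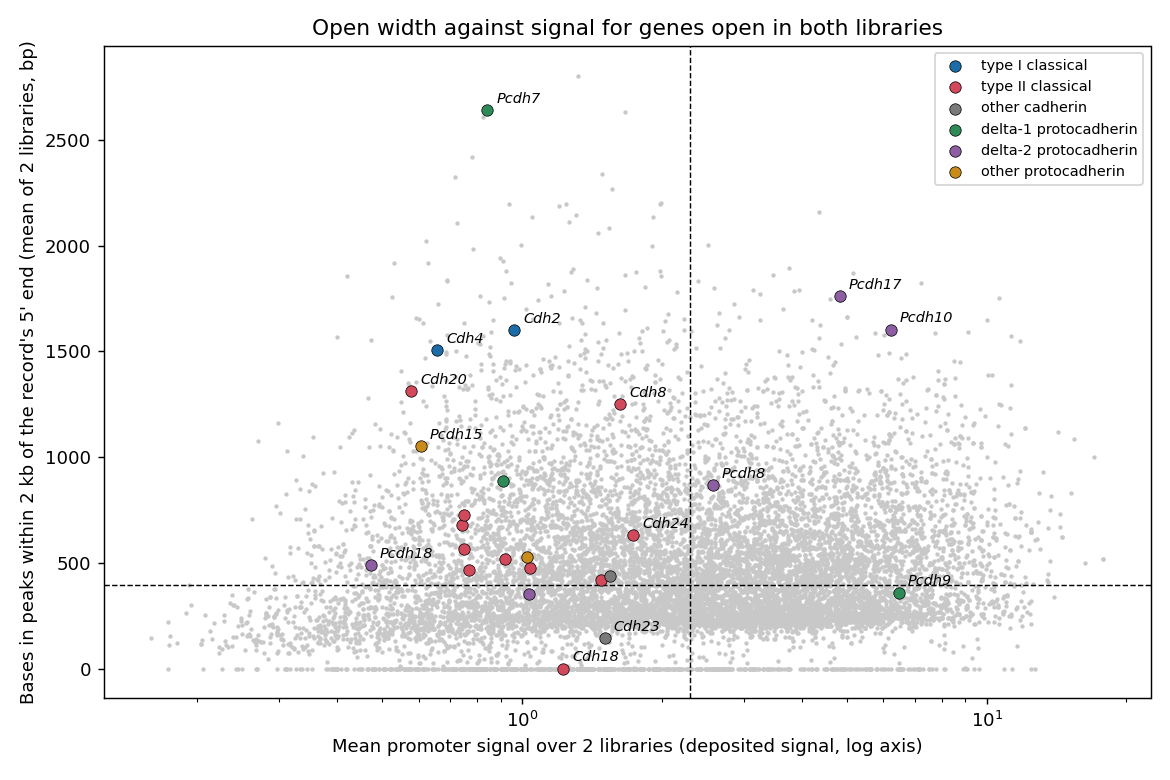
Bases in peaks within 2 kb of the 5′ end of the gene record, as the mean of 2 libraries, against mean promoter signal on a log axis, for the 12982 genes open in both libraries (grey) and the 25 open members (coloured by class), with dashed lines at the medians of all open genes. Pcdh7, Cdh2, Cdh4 and Cdh20 lie at the upper left with 1310.5 bp or more and signals below 1.00, and Pcdh10 and Pcdh17 at the upper right.

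Several of these long genes opened at inner starts. At Cdh18 the 5′ end of the record had no peak, and the promoter peak lay 487433 bp inside, at a retained-intron start, with a protein-coding start at 487441 bp under the same peak. At Cdh23 the 5′ end and the other protein-coding starts had no peak. Its 3 open starts belonged to transcripts typed as processed transcript or retained intron, at 9233 bp (0.479 and 0.588), 290037 bp (1.37 and 0.978) and 390841 bp (1.23 and 1.65) from the 5′ end. The record is 393743 bp long, so the last of these lies near its 3′ end. Counted from protein-coding transcripts alone, Cdh23 was not open.

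Cdh12 and Pcdh15 were open at both outer and inner starts. At Cdh12 the record's 5′ end, a start of a processed transcript in a window shared with the antisense gene Gm49685, had 0.660 and 0.827. The protein-coding starts 660860 and 662187 bp inside had 0.442 and 0.445, and 0.491 and 0.509. The outer start was thus higher than the coding starts in both libraries. At Pcdh15 the record's 5′ end, a retained-intron transcript, had 0.412 and 0.350, and the protein-coding starts 722525 to 722601 bp inside had 0.527 and 0.684. That cluster was the higher in both libraries, and the protein-coding starts at 847714 and 1256517 bp had no peak. Cdh10 had a weaker open start 1382 bp inside, with 0.460 and 0.620, and Pcdh17 one 4944 bp inside, with 0.624 and 0.660.

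Footprints found in both libraries lay in the promoter peaks of 19 members, against 53.2% of all protein-coding genes. That is 76% of the 25 open members, against 89.9% of all open genes. Pcdh7 had 28 footprints in replicate 1 and 21 in replicate 2, the most of any member, and Cdh2 had 14 and 11. The 6 open members without a footprint shared between their peaks had between 0 and 8 in a library. Cdh13 had 8 and 2, Cdh6 7 and 5, Pcdh20 6 and 3, Pcdh15 3 and 2, Cdh11 1 and 7, and Pcdh1 5 and 0.

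Motifs were read in 200 bp windows around site midpoints, on both strands, beside all sites of the same kind. Of the 46 shared sites at members' promoters, 14 held GGGCGG (30.4%), against 49.5% of 17973 promoter sites of all genes. In 4 of the 14 the motif touched a shared footprint (28.6%), against 54.9% of all promoter sites with the motif. The E-box CAGATG, read by neuronal basic helix-loop-helix factors, was in 6 (13.0% against 9.71%), CAGGTG in 6 (13.0% against 12.5%) and the CTCF motif in 2 (4.35% against 3.68%). The other 9 motifs had no match in these windows: CCGGAAGT (ETS), TGACGTCA (CREB), TGANTCA (AP-1), GCGTGGGCG (EGR) and the longer consensus motifs of NRF1, MEF2, NFI, REST and RFX. These are rare in promoter sites of all genes too, with 4.97% for ETS, 3.54% for AP-1, 2.61% for CREB and lower shares for the rest, so 0 of 46 is near the background.

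Outside promoters, a shared site was a group of overlapping peaks holding peaks of both libraries, touching no promoter window of a protein-coding gene and lying in the gene record or 20 kb on either side. Such a site was found for 31 of the 33 genes, against 71.1% of all protein-coding genes, and Cdh19 and Pcdh20 had none. The members' records are long, with a median of 123347 bp against 17425 bp, and the share of all genes with a site was 64.8% for records under 50 kb, 90.8% for 50 to 200 kb and 98.8% above 200 kb. The members had 345 non-promoter peaks in replicate 1 and 470 in replicate 2, which gave the 243 shared sites. Of these, 186 lay in introns, 13 in exons, 26 in the upstream flank and 18 in the downstream flank, and 12 lay inside the record of another protein-coding gene. The shares in introns, in flanks and in other records were not counted over all genes.

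Per 100 kb, the members had a median of 2.25 shared sites, close to the 2.18 of all genes. Both moved with the processing: the stricter list gave 1.12 against 1.09, replicate 2 alone 3.74 against 4.22 and replicate 1 alone 3.40 against 2.68, so which of the pair is higher depends on the setting. Within length classes the members' median was 3.20 against 2.08 under 50 kb (9 members), 1.70 against 2.69 at 50 to 200 kb (13 members) and 2.77 against 2.60 above 200 kb (11 members). The spread among members was wider than these gaps. Pcdh1 reached 10.6 per 100 kb (percentile 97.9 of its length class), Pcdh10 8.23 (97.6), Cdh22 5.51 (87.5) and Cdh4 4.83 (87.1). Many sites of Pcdh1 and Pcdh10 lay just beyond the promoter window. The 4 upstream sites of Pcdh1 were 838 to 2868 bp from an annotated start. Except for chr3:45432381-45432720, the Pcdh10 sites were 1072 to 2588 bp from a start. By role, the medians were 3.47 for type I, 1.29 for type II, 3.20 for other cadherins, 2.83 for delta-1, 2.25 for delta-2 and 1.26 for other protocadherins.

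Low densities were found in the 5 type II genes of chromosome 15, Cdh6, Cdh9, Cdh10, Cdh12 and Cdh18. These 5 genes had 24 shared sites in all and densities of 0.678 to 1.70, each below the median of its length class. Cdh12, with a record of 1140269 bp, had 27 non-promoter peaks in replicate 2 and 9 in replicate 1, of which 8 sites were shared (percentile 5.71). Cdh18 had 25 and 9, also with 8 shared (percentile 9.42). On chromosome 1, Cdh7 had 0.506 and Cdh19 0, while Cdh20 had 3.75. On other chromosomes, Cdh8 (percentile 20.3), Cdh17 (18.7) and Pcdh15 (17.6) were also low in their length classes. A low density was therefore neither common to all type II genes nor confined to them or to chromosome 15.

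**Figure D3:**
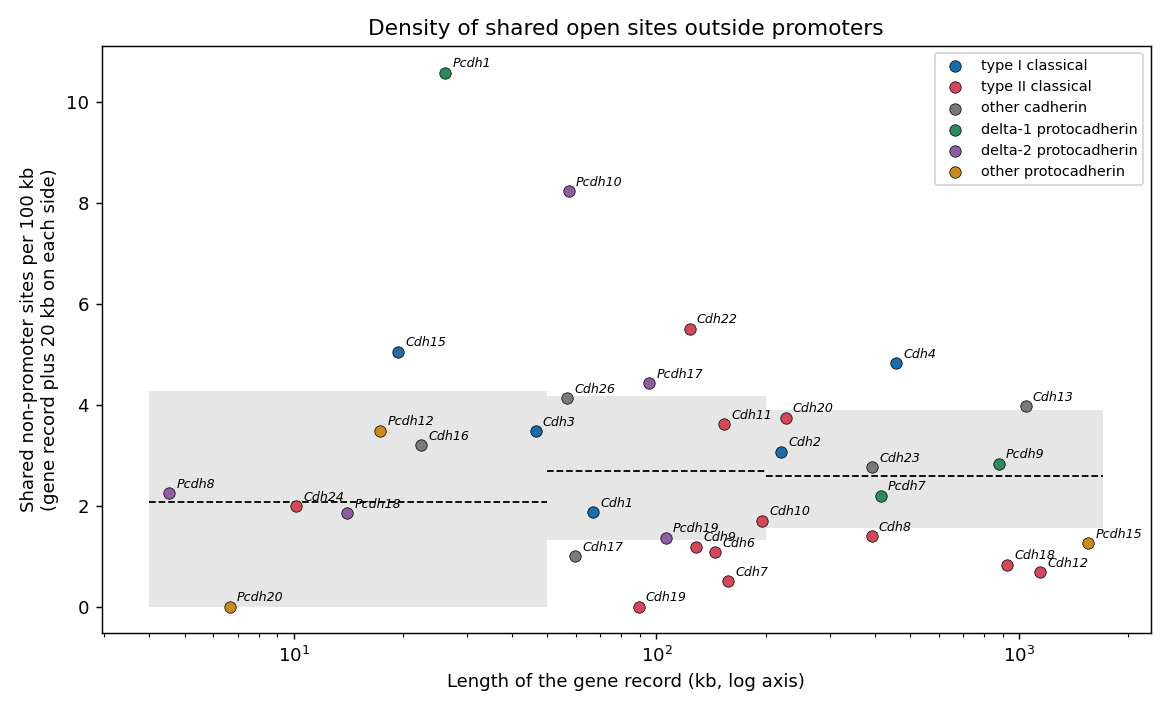
Shared non-promoter sites per 100 kb of gene record plus 20 kb on each side against the length of the record on a log axis, with a point for each of the 33 genes coloured by class. Dashed lines give the median and grey bands the middle 50% of all protein-coding genes in 3 length classes, and Cdh6, Cdh9, Cdh12 and Cdh18 are among the points below the bands, while Pcdh1 at 10.6 and Pcdh10 at 8.23 lie above them.

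The 4 members with the most sites were long genes. Cdh13 had 43 shared sites, 42 of them in introns, from 47 peaks in replicate 1 and 70 in replicate 2. Its strongest by mean, printed above, lay 875138 bp inside the gene with 1.81 and 2.25. The Cdh13 site at chr8:118611661-118611900 was nearly equal, with 1.74 and 2.31, and the order of these sites differed between the libraries. That site held a CAGATG match touching a shared footprint and an AP-1 match that did not. Pcdh9 had 26 sites, and the strongest, also printed, lay 675658 bp inside with 3.30 and 2.14. The replicate 1 value was the higher at Pcdh9 and the lower at Cdh13. Cdh4 had 24 sites, 23 of them intronic, with the strongest at chr2:179537381-179537680 (1.81 and 1.34). Pcdh15, with the longest record of the members, had 20, and its strongest lay in the upstream flank at chr10:73098121-73098380 (1.16 and 1.52). At 1.26 sites per 100 kb, Pcdh15 was sparse beside Cdh4 and Cdh13 at 3.98.

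Cdh23 had 12 shared sites, and the strongest, at chr10:60285761-60285980 with 2.93 and 2.81, lay downstream inside the neighbouring gene Psap. Cdh20 had 10, with the strongest in an intron at chr1:104944821-104945060 (0.709 and 1.02). Pcdh7 also had 10, and its strongest, at chr5:57715801-57716160 with 1.76 and 1.76, lay in the upstream flank and exceeded both Pcdh7 promoter values. Cdh22 had 9 (strongest 1.22 and 1.38, intron, chr2:165201761-165202040). Cdh2 had 8 (1.05 and 1.32, intron, chr18:16681761-16682100), and Cdh12 had 8 (1.11 and 1.07, intron, chr15:21405261-21405520). Cdh18 had 8, the strongest between the 5′ end of the record and its open start, at chr15:22914541-22914760 (1.31 and 1.63). Pcdh10 had 8, the strongest upstream at chr3:45375821-45376080 (1.52 and 2.12). For Cdh2, Cdh12, Cdh18, Cdh20, Cdh22, Cdh23 and Pcdh7 the strongest outside site was above the promoter value of the same gene in both libraries. Cdh4, Cdh13 and Pcdh15 showed the same, and Pcdh9 and Pcdh10 the opposite. The outside value is the highest of several sites, and this comparison was not made over all genes.

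**Figure D4:**
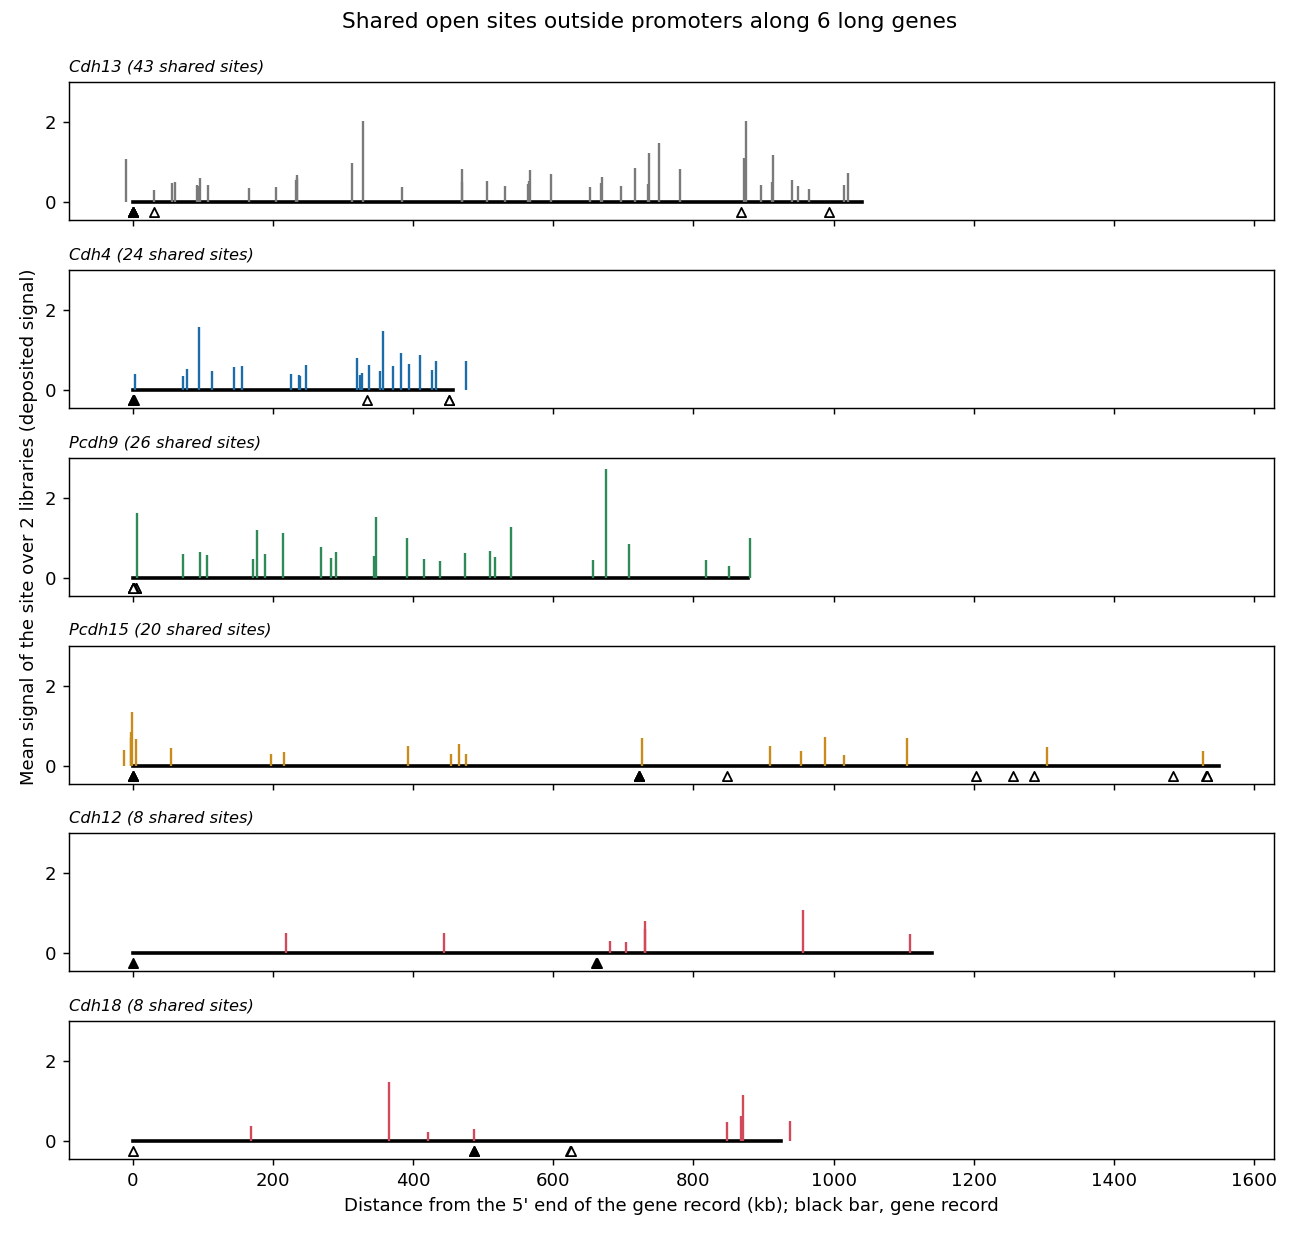
Shared non-promoter sites along 6 long genes, by distance from the 5′ end of the record in kb, with bar height giving mean deposited signal over 2 libraries, a black line for the gene record, filled triangles for starts open in both libraries and open triangles for other starts. Cdh13 and Cdh4 carry 43 and 24 sites spread along their introns, and Cdh12 and Cdh18, of similar length to Cdh13, carry 8 each.

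Among the remaining genes, the site with the highest mean signal of all 243 was in the upstream flank of Pcdh1, 838 bp from the 5′ end. It had 2.90 and 3.78, above both promoter values of that gene. The Cdh10 site printed above, 2604 bp inside the gene and 1222 bp from its nearest annotated start, had 2.67 and 3.86. It exceeded the Cdh10 promoter in both libraries. A promoter window of 2000 bp would take in the Pcdh1 and Cdh10 sites and raise the promoter signal of both genes. In Cdh16, whose promoter had no peak, the intronic site printed above had 1.66 and 1.94. In Cdh1, whose promoter was open in replicate 2 alone, an intronic site had 0.848 and 1.79. Genes without an open promoter thus still held open sites, and these can belong to other genes of the region. The strongest site of Cdh15 (1.85 and 2.49) lay inside Gm20388, and that of Pcdh12 (0.824 and 0.938) inside Dele1.

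Sites in exons were mainly those of protocadherins with long coding exons. Delta-2 protocadherins had 10 of the 13 exonic sites among only 18 sites in all. Pcdh10 had 5, of which 4 lay in its first exon of 4638 bp, with signals of 0.430 to 0.551 in replicate 1 and 0.406 to 0.469 in replicate 2. Pcdh17 had 3 in its first exon of 5091 bp, with 0.812 and 0.906, 0.842 and 0.986, and 0.806 and 0.803. Each Pcdh17 value was above all those of the Pcdh10 exon. Pcdh8 (0.673 and 0.811) and Pcdh18 (0.394 and 0.278) had 1 each. Of the 13 sites, 10 had their midpoint in coding sequence, and 2 of the 3 Pcdh17 sites in its first exon did not. Over all members 5.35% of sites were exonic, counting only the member's own exons. Of all shared non-promoter sites, 4.73% lay in exons of any protein-coding gene. The latter share also covers sites far from genes, so the shares are not fully alike.

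The median mean signal of the 243 sites was 0.603, against 0.686 over all 60527 shared non-promoter sites. A shared footprint was found in 130 of them (53.5%, against 60.4%). In the 11 members over 200 kb, 43 of 156 sites inside the record lay in its first 25% (27.6%), against 24.7% over all 998 genes of that length. Of the motifs, CAGATG was in 85 of 243 windows (35.0% against 32.5%), CAGGTG in 30 (12.3% against 13.4%) and the AP-1 motif in 28 (11.5% against 12.1%). GGGCGG was in 16 (6.58% against 8.01%), the CTCF motif in 14 (5.76% against 10.6%) and the MEF2 motif in 10 (4.12% against 3.04%). The CTCF motif touched a shared footprint in 10 of 14 sites (71.4% against 73.9%), CAGATG in 18 of 85 (21.2% against 22.7%) and the AP-1 and MEF2 motifs in 0 of 28 and 10 sites (against 7.75% and 9.58%). CREB, REST and RFX motifs had 1 match each, and NRF1, ETS, NFI and EGR motifs had 0.

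Genes for catenins and the WAVE complex had higher median promoter signals than the members, and other cadherin superfamily genes had a similar one, with the WAVE median near that of all open genes. The values over all genes are 59.2% open and a median of 2.30 over open genes. Of 12 catenins and junction adaptors, all were open in both libraries, with a median signal of 3.16. Jup, plakoglobin, had 10.5 and 9.27, and Vcl, vinculin, had 7.37 and 5.80, both above every member in replicate 1. In replicate 2, Vcl was below Pcdh9 and Pcdh10. Of 8 genes of the WAVE complex, 7 were open (87.5%, median 2.63), led by Wasf1 with 6.93 and 7.12 and Abi1 with 3.71 and 3.94, and Cyfip2 had a peak in replicate 1 alone (0.642). Of 19 other genes of the cadherin superfamily, 10 were open (52.6%), with a median of 1.11, close to the members' 1.03. Clstn3, a calsyntenin of the postsynaptic membrane, had 3.33 and 3.90, and Celsr3, an atypical cadherin of axon tracts, had 1.81 and 2.39. Fat2, Dchs1, Cdhr2, Cdhr4 and Cdhr5 had no promoter peak in either library.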

How the data were processed

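DNase-seq of 2 libraries of mouse hippocampus was read from peak, footprint and false discovery rate lists that the authors deposited for each library on mm10. The aligner, callers and read depth were not given in the sources used here. The deposited peak heights are a signal whose scale is not stated; it was used as given. The authors' false discovery rates, which are adjusted p-values, are listed only below 0.05, and the deposited footprints all carry the p-value type threshold 0.01.

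Genes and starts came from GENCODE M21, sequence from the RefSeq copy of GRCm38. A gene's promoter signal is that of its highest peak touching 500 bp on either side of any start. Overlaps needed 1 bp. Values were computed with Python 3.11.15 with pysam 0.24.0, numpy 2.4.6 and pandas 2.3.3 and tested on simulated peaks. With 1 group, no test was made. The result of 1 marker list is not reported here. SDs over 2 libraries are imprecise.

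The members, lists, motifs and named-gene rule were chosen with earlier results of these data known. The rule gives promoter values for every member open in 1 or both libraries, names the rest, and gives the strongest site of the 12 members with most shared sites. The strongest sites of other members were chosen after their values were seen. Of each partner list it names the pair with the highest signal and those without a peak. Alternatives were the stricter list, other windows, starts, flanks and overlaps, and each library left out.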

Additional observations from a re-analysis of the deposited data

How the results depend on the processing

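No paired analysis was possible because there was 1 group and no test. The count of members open in both libraries was 22 with the stricter peaks, 23 from record 5′ ends alone, 24 from protein-coding starts, 25 with a 2000 bp window, and 25 to 28 with either library left out, against 25. Members with a shared non-promoter site numbered 28 to 33 over the alternatives. The number with a shared footprint at the promoter was 16 to 21 with both libraries required and 25 when either library was left out, since footprints then need no partner. The median promoter signal was 0.879 to 1.23 over the other alternatives and 1.34 after division by the library median over shared peaks, which is another scale. The median density of 2.25 shared sites per 100 kb moved most: it was 1.12 with the stricter peaks, 1.70 with a reciprocal overlap of 0.5, 1.60 with a 2000 bp window, 2.84 with flanks of 50 kb, 2.15 without flanks, and 3.40 to 3.74 with either library left out. The stricter list and the reciprocal overlap leave fewer shared sites by construction. The cause of the move with wider flanks was not tested. Depth was not given, so a promoter without a peak was not detected as open, which is not evidence that it is closed.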

Other observations

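The upstream flank of Cdh26, a gene with no open promoter, differed between the libraries. Replicate 1 listed 27 peaks there, with signals of 0.0969 to 0.969 and a median of 0.188, covering 7602 bp. Replicate 2 listed 4, with signals of 0.406 to 1.22, covering 1103 bp. An overlap with the other library was found for 4 of the 27 and for 3 of the 4. The flank runs into the neighbouring gene Ppp1r3d. Pcdh8 had 9 non-promoter peaks in replicate 1 and 1 in replicate 2, and Pcdh20 had 1 and 8, so single-library peaks were common around both genes and in opposite libraries.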
